A study of Mus musculus with 40 samples.

Results

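The T-box genes encode transcription factors that share a DNA-binding domain, and 10 of them (Tbx1, Tbx2, Tbx3, Tbx4, Tbx5, Tbx6, Tbx15, Tbx18, Tbx20 and Tbx21) were chosen by name out of 55450 annotated mouse genes. Their promoters, taken as the 3000 bp that begin 2000 bp ahead of each annotated start, were examined for called peaks of 2 histone marks. H3K27me3 is the trimethylated lysine deposited by Polycomb repressive complex 2, and H3K4me3 marks transcription start sites. A promoter with both marks is called bivalent.

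T-box factors act early in development and in few tissues. Tbx5 and Tbx20 are needed for heart formation, Tbx4 and Tbx5 for hindlimb and forelimb outgrowth, and Tbx1 for the pharyngeal arches. Tbx2 and Tbx3 are repressors, Tbx6 specifies paraxial mesoderm, Tbx15 and Tbx18 act in mesenchyme of the skeleton and the urogenital and cardiac tissues, and Tbx21 (T-bet) directs T helper 1 cells. Polycomb domains over such genes are a known feature of cells that do not use them. The H3.3 K27M protein, an oncohistone of diffuse midline glioma, impairs spreading of H3K27me3 away from the sites where Polycomb is recruited.

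The cells were oligodendrocyte progenitor cells (OPCs) of FVB mice, immunopanned with an antibody against PDGFRA from the brainstem or the dorsal telencephalon of postnatal day 5 to 7 pups, and kept undifferentiated in culture. K27M cultures carried a Cre-activated K27M allele at the endogenous H3-3a locus together with the transgene labelled AMGFAP-Cre, a human GFAP promoter driving Cre in neural stem and progenitor cells; control cultures came from littermates. Animals of a litter were pooled by region and genotype, so a culture stands for several pups. Both genotypes were available for brainstem cultures 59 and 61 and telencephalon cultures 59, 60 and 61, which gave 5 matched pairs and 10 libraries per mark.

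Peaks were called per library by the authors. The lists held 4739 to 64808 H3K27me3 peaks and 20961 to 31200 H3K4me3 peaks, and they carry no read totals; those stated by the study were not used for the values here. H3K27me3 peaks covered 102 and 49.3 Mb in brainstem control cultures 59 and 61, and 26.5, 96.2 and 152 Mb in telencephalon control cultures 59, 60 and 61. In K27M they covered 13.3 to 41.4 Mb. The OPC identity of the cultures was checked at 6 promoters (Pdgfra, Cspg4, Olig1, Olig2, Sox10 and Nkx2-2), which had H3K4me3 in all 10 libraries and, by the consensus of controls in each region, H3K4me3 only; single libraries had an H3K27me3 peak at Nkx2-2 (2 control and 3 K27M). Of 4 microglial markers, Aif1, Csf1r and Cx3cr1 had no H3K4me3 peak in any library and P2ry12 had one in 3 control and 5 K27M libraries. None of the 3 T-cell markers (Cd3e, Cd4 and Cd8a) had one. Markers of other cells did carry H3K4me3: the neuronal Rbfox3, Snap25 and Tubb3, the astrocytic Slc1a3 and the mesenchymal Col1a1 and Foxc1 in all 10 libraries, the neuronal Stmn2 in 4 control and 5 K27M libraries, and the mesenchymal Foxd1 and Twist1 in 4 and 3 each. Of these, Rbfox3, Stmn2, Foxc1, Foxd1 and Twist1 were bivalent in both regions. The astrocytic Gfap had an H3K4me3 peak in 3 control and 3 K27M libraries, Aldh1l1 in 2 and 4, and Aqp4 in 0 and 1. The pericyte marker Pdgfrb had one in 2 and 0 libraries and Rgs5 in none. Gfap and Pdgfrb were bivalent in the telencephalon only. Of 4 endothelial markers only Cldn5 had a peak, in 3 control and 2 K27M libraries. The part of other cells in the results was not tested.

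The members lie on 6 chromosomes of mm10, some of them in pairs. Tbx2 (chr11:85832551-85841948, + strand) and Tbx4 (chr11:85886422-85916097, + strand) start 53.9 kb apart. Tbx3 (chr5:119670669-119684724, + strand) and Tbx5 (chr5:119832668-119885219, + strand) start 162.0 kb apart. Tbx18 (chr9:87702800-87731260) and Tbx20 (chr9:24718138-24774303) lie on the - strand of the same chromosome. The others are Tbx1 (chr16:18580979-18590671, - strand), Tbx6 (chr7:126781483-126785560, + strand), Tbx15 (chr3:99240381-99354259, + strand) and Tbx21 (chr11:97098071-97115331, - strand).

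Promoter sequence was available for 6 members in RefSeq (GRCm38.p6, the assembly named mm10), as 300 bases from 250 before to 50 after a start. The following 4 are shown because they stand for the marking patterns described next. CpG dinucleotides, which accompany both marks at many promoters, are in capitals, and each sequence reads 5′ to 3′ on the strand of its gene.
Tbx6 (chr7:126781233-126781532, + strand): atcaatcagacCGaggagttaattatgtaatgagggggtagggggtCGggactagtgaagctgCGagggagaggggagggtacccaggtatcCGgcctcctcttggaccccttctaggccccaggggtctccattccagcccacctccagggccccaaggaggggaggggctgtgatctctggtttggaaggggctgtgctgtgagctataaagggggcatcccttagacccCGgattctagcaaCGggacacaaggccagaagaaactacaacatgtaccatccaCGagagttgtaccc
Tbx20 (chr9:24774254-24774553, - strand): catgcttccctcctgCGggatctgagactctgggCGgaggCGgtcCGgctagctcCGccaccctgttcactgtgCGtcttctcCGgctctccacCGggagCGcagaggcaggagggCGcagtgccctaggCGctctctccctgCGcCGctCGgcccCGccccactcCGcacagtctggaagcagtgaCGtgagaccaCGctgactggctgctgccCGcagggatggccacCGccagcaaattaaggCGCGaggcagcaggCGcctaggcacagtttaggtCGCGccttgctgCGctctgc
Tbx18 (chr9:87731211-87731510, - strand): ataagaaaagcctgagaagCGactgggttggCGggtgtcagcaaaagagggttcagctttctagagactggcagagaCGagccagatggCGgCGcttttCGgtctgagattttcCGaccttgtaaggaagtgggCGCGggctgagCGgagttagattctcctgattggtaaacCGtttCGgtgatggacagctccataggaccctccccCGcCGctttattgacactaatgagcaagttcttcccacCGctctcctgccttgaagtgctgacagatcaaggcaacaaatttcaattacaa
Tbx21 (chr11:97115282-97115581, - strand): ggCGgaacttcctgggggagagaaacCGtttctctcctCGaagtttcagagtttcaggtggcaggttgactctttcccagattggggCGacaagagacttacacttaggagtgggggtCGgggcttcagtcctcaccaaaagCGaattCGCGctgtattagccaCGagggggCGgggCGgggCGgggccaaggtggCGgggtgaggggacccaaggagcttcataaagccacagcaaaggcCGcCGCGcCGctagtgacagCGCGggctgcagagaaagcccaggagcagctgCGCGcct
The Tbx6 stretch holds 7 CpGs, which is also the median of the 32851 RefSeq promoters. Those of Tbx20, Tbx18 and Tbx21 hold 26, 15 and 21, more than in 83.1%, 65.4% and 75.2% of them. H3K27me3 peaks covered all 300 bases of the Tbx20, Tbx18 and Tbx21 stretches in 5 of 5 control and 5 of 5 K27M libraries and touched the Tbx6 stretch in none. H3K4me3 peaks touched the Tbx20 stretch in 3 control and 0 K27M libraries, that of Tbx18 in 4 and 0, that of Tbx21 in 4 and 4 and that of Tbx6 in 4 and 5. Over the whole 3000-bp promoter at the first start, the members held between 55 CpGs (Tbx6) and 203 (Tbx2), against a median of 72 over 21938 protein-coding genes and 107 over the 1272 of them with H3K27me3 in all libraries.

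H3K27me3 covered a promoter of 9 of the 10 genes in every one of the 10 libraries. Among all genes, 1820 of 55450 (3.28%) had an H3K27me3 promoter peak in all 10 libraries. Tbx6 had no H3K27me3 peak at its promoter in any library, and base pairs under peaks within 50 kb on either side of its start ranged from 0 to 4845 in controls and were 0 in every K27M library. Of 2964 genes with a promoter peak in all 5 controls, 61.4% also had one in all 5 K27M cultures, and 9 of 9 such T-box genes did. A domain is used below for the longest H3K27me3 peak that overlapped a promoter of the gene.

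The longest domains covered Tbx3, Tbx5 and Tbx15, with control medians of 39993, 59969 and 44818 bp, which placed them above 89.2%, 93.8% and 91.1% of the 1820 genes. The shortest were those of Tbx4 (7954 bp) and Tbx21 (7145 bp), both under the median gene of 8374 bp. Tbx1, Tbx2, Tbx18 and Tbx20 had control medians of 14577, 15752, 24567 and 23060 bp.

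**Figure D1:**
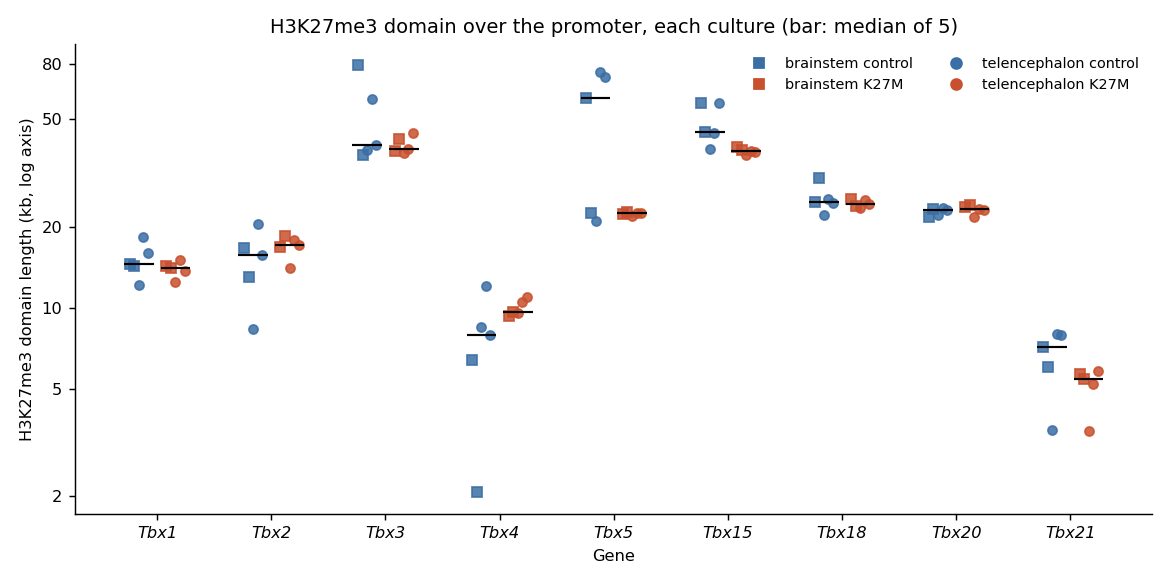
Length of the H3K27me3 domain over the promoter of 9 T-box genes (kb, log axis) in each of 5 control and 5 K27M cultures; squares are brainstem, circles telencephalon and bars the median of 5. The longest K27M domain is 1.04 times the shortest for Tbx5 and 1.67 times for Tbx21, against 3.59 and 2.27 times in controls, and Tbx20 alone spreads slightly more in K27M (1.11 against 1.08 times).

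At Tbx5, the cardiac and forelimb factor, the domain measured 59969 and 22509 bp in brainstem control cultures 59 and 61, and 20914, 75096 and 71514 bp in telencephalon control cultures 59, 60 and 61. The matched K27M domains measured 22316, 22665, 21866, 22502 and 22396 bp. Thus 3 controls lay far above all K27M cultures, 1 lay within their range and 1 just below it. The log2 difference, K27M minus control over both regions, was -0.91 (SE 0.38, limma with the pair as a block, adjusted p = 0.15), and it was -0.55 without brainstem culture 59. The 3 controls with the long domain were also the libraries with the largest H3K27me3 coverage (96.2 to 152 Mb), and the part of coverage in this difference was not tested.

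Tbx3, the neighbouring repressor gene, also ranged more widely in controls than in K27M. Its domain measured 79233 and 36765 bp in brainstem controls 59 and 61 and 38338, 59600 and 39993 bp in telencephalon controls 59, 60 and 61. K27M cultures held 37976, 42110, 37398, 38752 and 44369 bp, within the range of the controls (log2 difference -0.30, SE 0.25, adjusted p = 0.40). The stretch under H3K27me3 in all 10 libraries was chr5:119654451-119691215 at Tbx3, 36765 bp that covered the whole gene, and chr5:119827910-119848270 at Tbx5, 20361 bp from 4758 bp before the first start to 15602 bp after it. In the long control domains the H3K27me3 around Tbx5 ran on upstream to 43640, 44332 and 44151 bp before the start and took in the start of the lincRNA 1700021F13Rik. The antisense gene Tbx3os1 and the lincRNA Tbx3os2 shared the Tbx3 domain in 5 control and 5 K27M libraries.

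**Figure D2:**
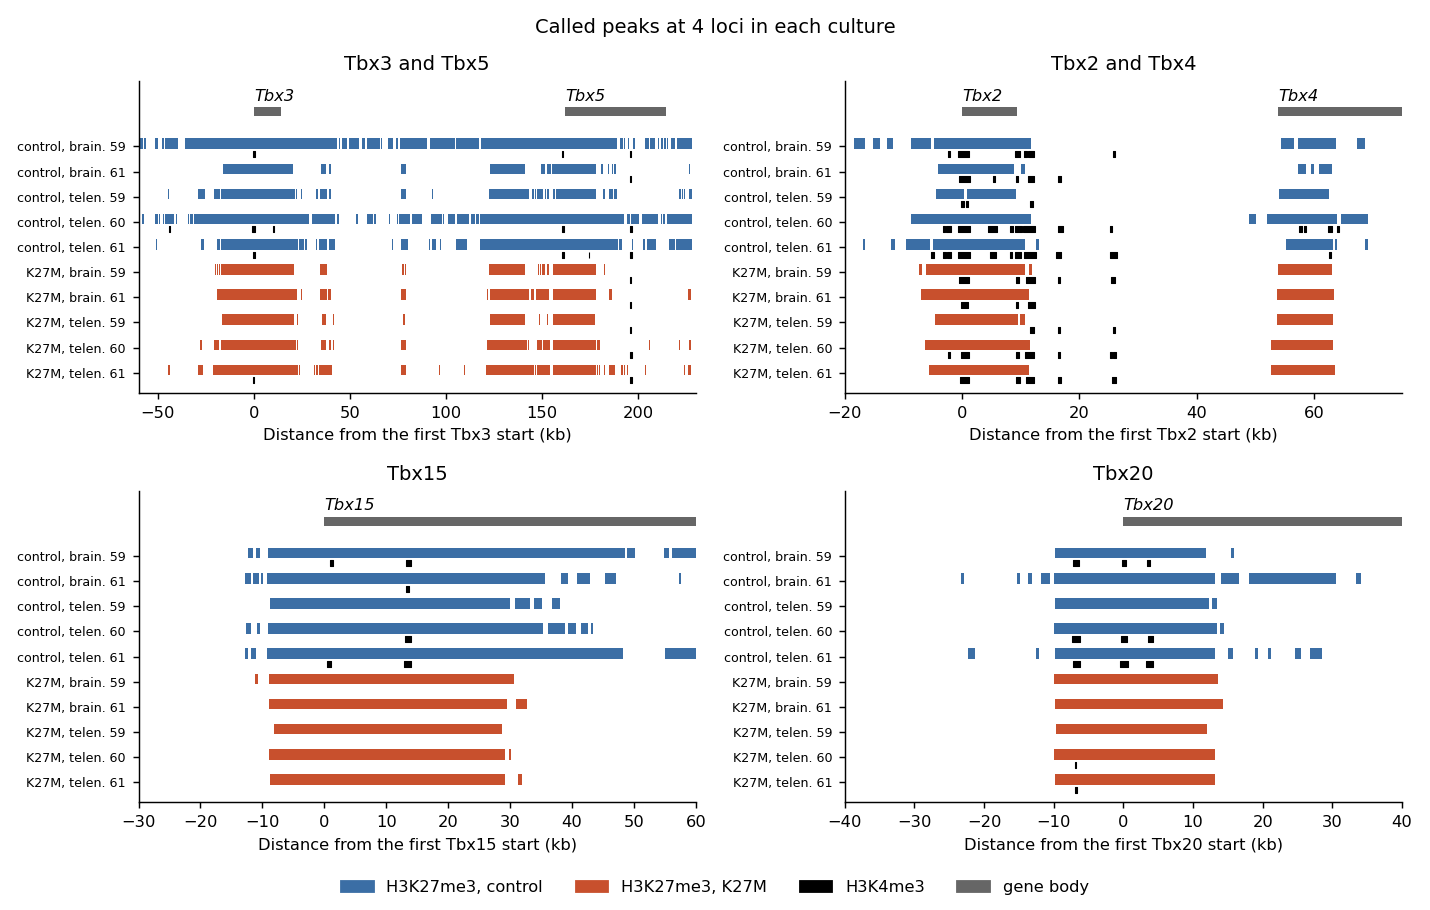
Called H3K27me3 peaks (blue, control; orange, K27M) and H3K4me3 peaks (black) of each culture against distance from the first start (kb) at Tbx3 with Tbx5, Tbx2 with Tbx4, Tbx15 and Tbx20; grey bars are gene bodies. The same central blocks recur in all 10 libraries, and at Tbx5 the block extends 43640 bp or more upstream in 3 controls and in no K27M culture.

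At Tbx15, which acts in skeletal mesenchyme, the domain was shorter in K27M in 5 of 5 pairs, without passing the test. The controls held 57635 and 44818 bp in brainstem cultures 59 and 61 and 38753, 44331 and 57629 bp in telencephalon cultures 59, 60 and 61. The matched K27M values were 39426, 38425, 36869, 38217 and 37892 bp, so that the K27M range (36869 to 39426 bp) overlapped only the lowest control. The log2 difference was -0.34 (SE 0.15, adjusted p = 0.16), and an exact two-sided sign-flip permutation test over the 5 pairs gave p = 0.0625, the smallest it can give. This takes the 5 pairs as independent. Both regions were dissected from the same litters, so same-numbered cultures of brainstem and telencephalon may share pups, and over 3 culture numbers no such test can go below 0.25. The upstream edge lay between 8113 and 9316 bp before the start in all libraries, and the edge inside the gene between 28755 and 48489 bp after it.

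Tbx21 was the only other member with a shorter domain in 5 of 5 pairs. Controls measured 7145, 6011, 3528, 8011 and 7901 bp and the matched K27M cultures 5685, 5460, 3500, 5228 and 5829 bp, in the order brainstem 59 and 61, telencephalon 59, 60 and 61. The groups overlapped, with telencephalon culture 59 lowest in both genotypes (log2 difference -0.29, SE 0.15, adjusted p = 0.21; exact sign-flip p = 0.0625). A shorter domain in 5 of 5 pairs was found for 2 of 9 T-box genes and for 43.8% of the 1820 genes.

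The domains of Tbx18 and Tbx20 varied least among controls. At Tbx20, a cardiac factor, controls measured 21628, 23227, 22122, 23355 and 23060 bp and K27M cultures 23551, 24137, 21663, 23137 and 22982 bp, and the highest value of either genotype was within 1.11 times its lowest (log2 difference 0.04, SE 0.12, adjusted p = 0.83, 95% interval -0.26 to 0.34). At Tbx18 controls ranged from 22067 to 30300 bp and K27M cultures from 23431 to 25242 bp (log2 difference -0.07, SE 0.13, adjusted p = 0.71). The part of the Tbx20 domain present in all 10 libraries, chr9:24762438-24783977, was 21540 bp long.

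Tbx1 and Tbx2 ranged more widely in controls. Tbx1 domains measured 12105 to 18214 bp in controls and 12421 to 15070 bp in K27M (log2 difference -0.09, SE 0.13, adjusted p = 0.60), and covered the whole gene body in all 10 libraries. Tbx2 domains measured 8316 to 20496 bp in controls and 14076 to 18518 bp in K27M (log2 difference 0.24, SE 0.20, adjusted p = 0.39).

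Tbx4, the hindlimb factor, had the most variable control domains and was the member with the largest positive difference. It measured 6410 and 2065 bp in brainstem controls 59 and 61 and 8482, 12020 and 7954 bp in telencephalon controls 59, 60 and 61. In K27M it measured 9303, 9681, 9555, 10526 and 10942 bp, longer than the matched control in all pairs but telencephalon 60. The log2 difference was 0.77 (SE 0.29, unadjusted p = 0.047, adjusted p = 0.12), and it was 0.12 with peaks joined across gaps of up to 3000 bp. Without brainstem culture 61 it was 0.34, and without brainstem culture 59 it was 1.19. The domain reached the first start, by 95 to 1240 bp beyond it, in all 5 K27M cultures. Among controls it did so only in telencephalon culture 60 (1914 bp beyond), and in the other 4 it began 163 to 7042 bp inside the gene. The 1603 bp common to all libraries, chr11:85893464-85895066, lay within the gene. The RefSeq promoter of Tbx4, chr11:85896515-85896814, was touched by H3K27me3 in 1 control and 0 K27M libraries.

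Over both regions, limma called 0 of 9 T-box genes changed in domain length at an adjusted p under 0.05, against 283 of 1820 genes (15.5%), of which 279 were shorter and 4 longer in K27M. At an unadjusted p under 0.05 there were 717 genes and 1 T-box gene, Tbx4. The median log2 difference was -0.09 for the 9 genes and -0.48 for all 1820, and 6 of 9 against 87.7% were below 0. These 283 calls fell to 9 without the pairing and to 0 without brainstem culture 59, telencephalon culture 60 or telencephalon culture 61. Centring each library on its median moved the median gene from -0.48 to 0.12 and the median T-box gene to 0.52, again with 0 called.

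**Figure D3:**
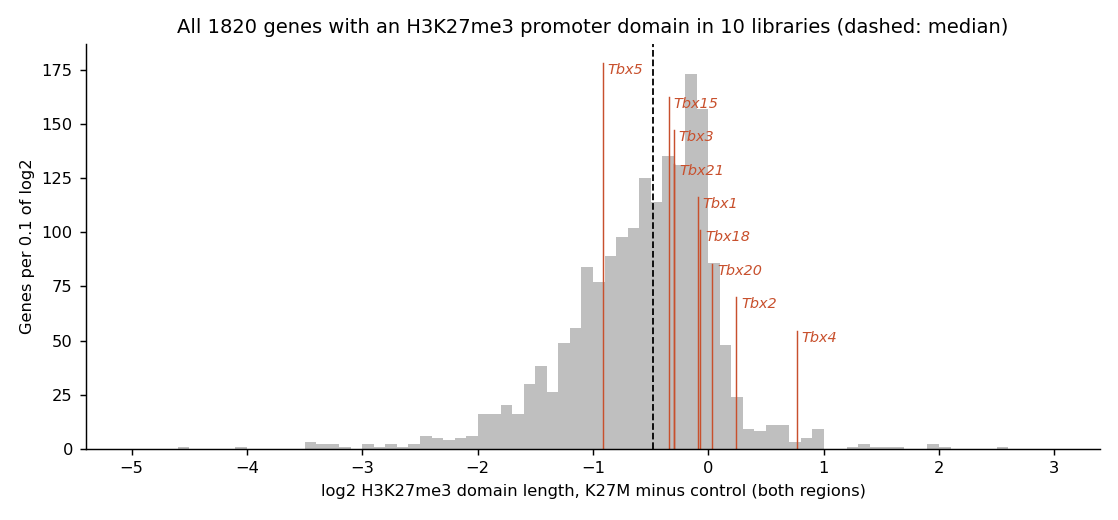
Distribution over 1820 genes of the log2 difference in H3K27me3 domain length, K27M minus control, in bins of 0.1; the dashed line is the median gene (-0.48) and red lines the 9 T-box genes. All but Tbx5 lie to the right of the median gene.

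Lengths varied less between K27M cultures than between control cultures. For 8 of 9 T-box genes, Tbx20 being the exception, the SD of log2 length was smaller over the 5 K27M than over the 5 control cultures. That was so for 80.8% of the 1820 genes, so the T-box genes followed the 1820 genes as a whole in this. The ratio of the longest to the shortest domain was 3.59 in controls and 1.04 in K27M for Tbx5, 5.82 and 1.18 for Tbx4, and 1.49 and 1.07 for Tbx15.

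Fold enrichment of H3K27me3 at these promoters was higher in K27M than in the matched control at all 9 genes. Where several peaks overlapped promoters of a gene, the highest value was taken, which need not belong to the domain measured above. This value is the authors' ratio of ChIP to input signal over the peak, scaled to the library and not to the spike-in, so that it measures concentration within a library and not an amount per cell. It was taken up after the lengths had been seen. At Tbx20 it was 10.08, 11.68, 6.71, 15.56 and 10.65 in controls and 28.29, 36.45, 11.46, 25.49 and 31.25 in the matched K27M cultures, in the order brainstem 59 and 61, telencephalon 59, 60 and 61. Each K27M value lay above its matched control. At Tbx4 it was 3.52, 2.70, 2.98, 13.89 and 3.08 in controls and 9.24, 14.85, 7.25, 15.54 and 23.55 in K27M, with telencephalon control 60 far above the other controls.

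Folds of K27M over control were averaged over the 5 pairs on the log2 scale. They were 3.13 for Tbx4, 2.94 for Tbx2, 2.77 for Tbx15, 2.48 for Tbx18 and 2.39 for Tbx5. Tbx20 had 2.35, Tbx1 2.34, Tbx3 1.97 and Tbx21 1.71, against 1.34 for the median gene. Higher enrichment in 5 of 5 pairs was found for 9 of 9 T-box genes and for 46.4% of the 1820 genes (exact sign-flip p = 0.0625 for each T-box gene, the smallest it can give). A difference above that of the median gene in 5 of 5 pairs was found for 9 of 9 and for 35.2%. The mean differences of Tbx4, Tbx2 and Tbx15 exceeded those of 99.7%, 99.5% and 98.9% of genes, and that of Tbx21 those of 64.9%. K27M libraries had fewer H3K27me3 peaks than their matched controls in all 5 pairs. The value is a ratio over the called peak, and peak lengths differed between libraries. The parts of peak number and of peak length in the enrichment were not tested.

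**Figure D4:**
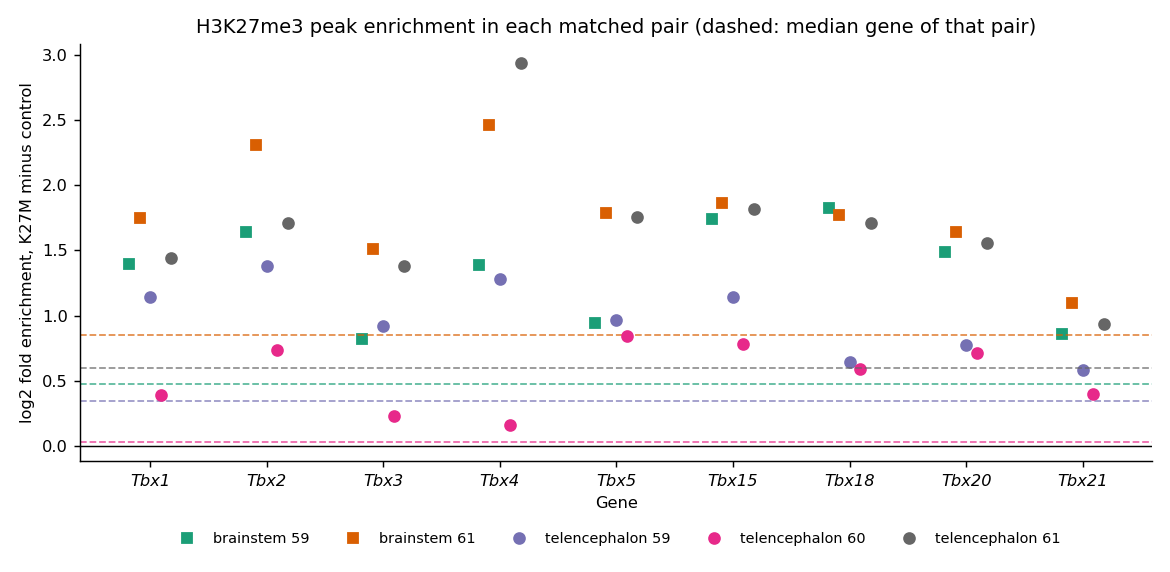
log2 fold enrichment of the H3K27me3 promoter peak, K27M minus control, for 9 T-box genes in 5 matched pairs; dashed lines mark the median of 1820 genes in the pair of that colour. All points lie above 0 and above the line of their own pair, with telencephalon 60 nearest to 0 for all 9 genes.

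H3K4me3 peaks at the same promoters were called in fewer K27M than control libraries at most of the genes. In controls, 8 of the 9 genes with H3K27me3 had one in at least 3 of 5 libraries, compared with 74.6% of the 1820 genes. A promoter peak was present in controls and K27M, each of 5, in 4 and 3 libraries at Tbx1, 5 and 4 at Tbx2, 3 and 1 at Tbx3, 2 and 0 at Tbx4, 3 and 0 at Tbx5, 4 and 0 at Tbx15, 4 and 3 at Tbx18, 3 and 0 at Tbx20 and 4 and 4 at Tbx21. Tbx6, the member without H3K27me3, kept its peak in 5 and 5. Fewer K27M than control libraries had the peak at 8 of the 9 genes with H3K27me3, compared with 25.4% of 1606 genes with H3K27me3 in all libraries and H3K4me3 in any control. No K27M library had it at 4 of 9 (Tbx4, Tbx5, Tbx15 and Tbx20), compared with 12%. No peak means that none passed the authors' threshold, not that the mark was absent.

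Libraries differed in this within a genotype. Of the 10 genes, 9 and 6 had an H3K4me3 promoter peak in brainstem controls 59 and 61 and 2, 10 and 10 in telencephalon controls 59, 60 and 61. In the matched K27M cultures the numbers were 4, 4, 1, 5 and 6, lower in each pair. Over the 1820 genes the share with H3K4me3 was 74.1%, 69.0%, 45.7%, 85.1% and 86.2% in controls and 72.5%, 62.5%, 53.7%, 72.5% and 74.1% in K27M, in the same order. Telencephalon culture 59 was thus lowest in both genotypes. Without it, 7 of 9 genes had an H3K4me3 peak in fewer K27M than control libraries, compared with 25.3% of the 1606 genes above. No K27M library had one at 4 of 9, compared with 12%.

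**Figure D5:**
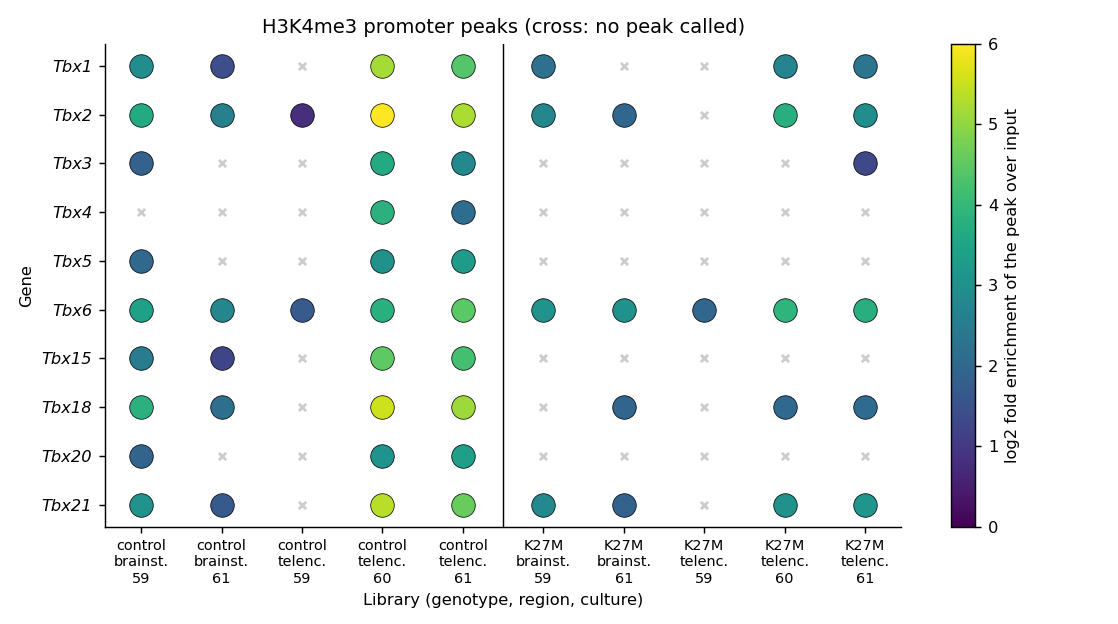
H3K4me3 promoter peaks of 10 T-box genes in 10 libraries; the colour gives the log2 fold enrichment of the peak and a cross means that no peak was called. Telencephalon controls 60 and 61 hold all 10 peaks, telencephalon control 59 holds 2, and the K27M libraries hold 1 to 6.

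Where both libraries of a pair had the peak, its enrichment differed most in telencephalon cultures 60 and 61. At Tbx18 it was 4.53 in control and 3.83 in K27M of brainstem culture 61, a ratio of 0.844. It was 46.39 in control and 3.99 in K27M of telencephalon culture 60, and 34.67 and 4.21 in culture 61, ratios of 0.0861 and 0.121. The median gene of those pairs had ratios of 0.486 and 0.637, and the median gene with H3K27me3 in all libraries 0.328 and 0.502, so libraries differed as a whole in the same direction. Tbx2, with 67.85 and 13.89 in culture 60 and 37.85 and 7.67 in culture 61, had ratios of 0.205 and 0.203. In brainstem culture 59 it had 12.60 and 6.89, a ratio of 0.547 against 1.14 for the median gene. Tbx6 had 14.07 and 15.06 in telencephalon culture 60 and 21.97 and 13.77 in culture 61. Telencephalon culture 59 went the other way, with a ratio of 1.58 for the median gene and 1.51 for the median gene with H3K27me3 in all libraries. Tbx6, the only member with a peak in both its libraries, had 3.23 and 3.86. By the study's read totals, telencephalon controls 60 and 61 had the highest duplicate shares of the H3K4me3 libraries. Most reads of control culture 60 were duplicates. The peak caller was set to keep duplicates, and whether they were removed before that step is not stated. The part of duplicates in these enrichments and in the peaks of these 2 libraries was not tested.

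The length of H3K4me3 peaks could be tested by limma only for Tbx6, the one member with a peak in all 10 libraries (log2 difference -0.41, SE 0.17, adjusted p = 0.81). It was not called, nor was any of 15931 genes (0%), of which 951 had an unadjusted p under 0.05. With peaks joined across gaps the Tbx6 difference was 0.43. Counting absent peaks as 0 bp, log2(length + 500 bp), an alternative added after seeing the data, put 9 of 10 T-box genes (all but Tbx21) below 0. That was so for 30.1% of all 19183 genes, and the medians were -0.61 and 0.06. Fewer K27M than control libraries had a peak at 8.53% of all genes with one in any control. Among those with H3K27me3 in all libraries it was 25.4%, and no median was taken over these alone. The lowest T-box genes were Tbx18 (-1.14) and Tbx15 (-1.11, unadjusted p = 0.0070, adjusted p = 0.77), and again 0 of 10 were called.

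Promoter states were set from consensus peaks of the controls of each region, found in at least 2 cultures. In the brainstem that meant every control culture, in the telencephalon it did not, so the counts of the 2 regions are not alike. In the brainstem 5 members were bivalent (Tbx1, Tbx2, Tbx15, Tbx18 and Tbx21), 4 had H3K27me3 only (Tbx3, Tbx4, Tbx5 and Tbx20), and Tbx6 had H3K4me3 only. In the telencephalon 9 were bivalent and Tbx6 again had H3K4me3 only. Of all genes 4.6% were bivalent in the brainstem and 7.31% in the telencephalon. The telencephalon number rested on cultures 60 and 61, since 1 member (Tbx2) was bivalent when either was left out or when every culture had to hold both marks, and 9 were when culture 59 was left out. The share of all genes that were bivalent was 2.52% without culture 60, 2.47% without culture 61, 2.39% with every culture and 7.26% without culture 59. When every brainstem control had to hold both marks, 5 members were bivalent there (5.23% of all genes). With K27M cultures in place of controls, 2 members were bivalent in the brainstem (Tbx2 and Tbx21) and 4 in the telencephalon (Tbx1, Tbx2, Tbx18 and Tbx21). The share of all genes was also lower there, 3.05% in the brainstem and 3.53% in the telencephalon.

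Between telencephalon and brainstem controls, limma called 0 of 9 T-box genes and 0 of 2964 genes (0%) for H3K27me3, with 34 genes at an unadjusted p under 0.05. The largest difference among the T-box genes was at Tbx4, 1.36 on the log2 scale (SE 0.65, adjusted p = 1.00). For H3K4me3 it called 0 of 2 T-box genes tested (Tbx2 and Tbx6) and 0 of 16042 genes (0%), with 600 at an unadjusted p under 0.05. The 0% depended on telencephalon culture 59. Without it 430 of 17047 genes (2.52%) were called, 338 longer and 92 shorter in the telencephalon. Of 6 T-box genes tested then, 0 were called, with a median log2 difference of 0.62 against 0.02 for all genes. The change with K27M also did not pass as different between regions for any of 9 T-box genes or 1820 genes (0%), of which 43 had an unadjusted p under 0.05. At Tbx4 it was 1.38 in the brainstem and 0.15 in the telencephalon, a difference of -1.24 (SE 0.58, adjusted p = 1.00).

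The 7 other T-box genes differed in their marks. Eomes and Tbr1, which act in cortical neurogenesis, and the mesoderm gene T had H3K27me3 in all 10 libraries and were bivalent in both regions. Domains of Tbr1 measured 5320 to 14480 bp in controls and 10844 to 20302 bp in K27M (log2 difference 0.95, SE 0.26, adjusted p = 0.068). Those of Eomes measured 7575 to 16902 bp and 8260 to 26596 bp (0.88, SE 0.31, adjusted p = 0.11). Mga had H3K4me3 only, like Tbx6. Tbx22 had an H3K27me3 promoter peak in 5 control and 1 K27M libraries and an H3K4me3 peak in 3 and 5, Tbx10 had H3K27me3 in 4 and 3 and no H3K4me3, and Tbx19 was unmarked in both regions.

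Genes that work with T-box factors were counted from lists of named genes. Of 11 cardiac partners and targets, 2 were bivalent and 5 had H3K27me3 only in brainstem controls, 6 and 1 in telencephalon controls. Of these, 7 could be tested and 0 passed, with a median log2 difference in H3K27me3 domain length of -0.003 (Gata5 -0.45, Gata4 -0.19 and Hand1 0.06 were the farthest from 0). Of 7 limb genes (Hand2 is in both lists), 5 were bivalent in the brainstem and 7 in the telencephalon. Among 6 tested, Fgf10, a limb outgrowth signal, fell by 2.41 on the log2 scale (SE 0.26, adjusted p = 0.024), while Shh differed by 0.93 and Fgf8 by -0.27 without passing. The Fgf10 call was lost without brainstem culture 59 (adjusted p = 0.10), telencephalon culture 60 (0.089) or telencephalon culture 61 (0.060), without the pairing (0.061), with centred libraries (0.068) and with absent peaks as 0 bp (0.057). The 3 cell-cycle inhibitors that Tbx2 and Tbx3 repress (Cdkn1a, Cdkn2a and Cdkn2b) had H3K4me3 in all 10 libraries, and Cdkn2a was bivalent in the telencephalon. Of 6 T helper 1 genes, 2 were bivalent in the brainstem and 3 in the telencephalon, and the 2 tested (Eomes and Runx3, -0.35) did not pass.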

How the data were processed

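H3K27me3 and H3K4me3 peak lists of 20 ChIP-seq libraries were used, and the input libraries were not used here. The authors mapped reads with BWA (0.7.17-r1188) to mm10, dropped blacklisted regions, and ran MACS2 (2.2.7.1) on every library separately with its input as background, in broad mode for H3K27me3. The deposited lists hold 3 values per peak, all made by the authors: a ratio (fold enrichment), the -log10 p-value and the -log10 q-value. None is scaled to the Drosophila spike-in, and regions under the threshold carry no value. The lists hold no read totals. The study states reads and duplicates per library, and they entered no value here. MACS2 was set to keep duplicates, and the study does not state whether they were removed before that step. Libraries with few peaks had been left out by the authors. The number of cultures (2 or 3 per group) sets the precision.

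Touching peaks were merged in each library and assigned to promoters of GENCODE M21 (the study used M25) by an overlap of at least 1 bp. The log2 length of the longest domain was fitted with limma 3.58.1 (R 4.3.3) over all genes with a peak in every library, with region by genotype terms, with both genotypes of one culture number and region as a block, and Benjamini-Hochberg adjustment over all genes at 0.05. Consensus peaks needed 2 cultures, with p of 1e-10 and 1e-06 (H3K4me3) or 1e-08 and 1e-04 (H3K27me3) as stringent and weak limits. Exact sign-flip tests over 5 pairs were two-sided and cannot give less than 0.0625. Python 3.11.15 with numpy 2.4.6 and pandas 2.3.3 was used, and the fits were tested on simulated data. All members were named, with genes of the lists by counts and up to 3 with the largest change. The members and lists were chosen with earlier results of these data known. Reference chromosomes were compared with the peaks: in 0 of 21 did a peak pass the chromosome end.

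The pairing comes from the culture numbers in the labels. Deviations of same-numbered K27M and control cultures from their group means correlated over genes in telencephalon cultures 59, 60 and 61 (r for H3K27me3 0.60, 0.33 and 0.08; for H3K4me3 0.59, 0.39 and 0.36), weakly so for H3K27me3 of culture 61, and not in the brainstem (-0.40 and -0.01). P-values measure the spread between these cultures of pooled pups and treat the 5 pairs as independent, although cultures 59 and 61 occur in both regions and may share pups, in which case they are too small.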

Additional observations from a re-analysis of the deposited data

How the results depend on the processing

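No T-box gene was called for domain length of either mark, in K27M against control or between regions, under any alternative run: 0 without the replicate block where pairs were blocked, 0 with cultures 59 and 61 as a replicate block between control regions, and 0 with each culture left out in turn. Pairing the brainstem cultures crosswise, chosen after seeing their correlation, also gave 0 T-box genes, with 445 in place of 283 genes called for H3K27me3 and 0 for H3K4me3. Over all genes the 283 calls became 73 with -log10 q of at least 3, 2 with fold enrichment of at least 3, 499 with gaps of up to 3000 bp joined and 36 with centred libraries. For H3K4me3 between control regions, 0 of 16042 genes became 430 of 17047 without telencephalon culture 59. The lowest adjusted p of a member for H3K27me3 length was 0.051 (Tbx15).

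Of 122 single values of members under alternatives, 11 changed sign. Centring on the library median gave 0.52 for Tbx1, 0.31 for Tbx3, 0.27 for Tbx15, 0.54 for Tbx18 and 0.31 for Tbx21. Joining gaps gave -0.18 for Tbx2 and -0.31 for Tbx20, and base pairs under peaks within 50000 bp gave -0.18 and -0.28. Leaving out one pair ranged from -0.62 to 0.0134 for Tbx3, -0.17 to 0.0294 for Tbx18, 0.34 to 1.19 for Tbx4, -1.27 to -0.55 for Tbx5, 0.11 to 0.37 for Tbx2, -0.14 to -0.06 for Tbx1, -0.42 to -0.26 for Tbx15, 0.02 to 0.05 for Tbx20 and -0.38 to -0.23 for Tbx21. Bivalent members in the brainstem were 3 with fold enrichment of at least 3 (3.42% of all genes) and 4 or 5 otherwise (3.79% to 5.23%). In the telencephalon they were 1 when every control had to hold both marks (2.39% of all genes). They were 1 to 9 there with a control left out (2.47% to 7.26%), and 8 or 9 otherwise (5.37% to 7.31%). The causes were not tested.

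Peaks below the authors' threshold are not in the lists, so a missing H3K4me3 peak in a library with weak enrichment cannot be told apart from a missing mark.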
